A study of Oryza sativa with 6 samples.

Results

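The 9 rice genes described here encode chitinases, a protease inhibitor, a germin-like protein and a seed lectin, and their transcripts were followed in developing seeds with and without silencing of *OsMADS29*. *OsChia1c*, *OsChia4a*, *RBBI3.3*, *Agglutinin* and *OsGER1* were chosen by name on their log2 signals in MADS29_KD and WT, which differed between the groups compared here. Every other gene whose symbol or synonym began with OsChi or RBBI was added if the array annotation paired it with a probe set of its own. This gave *OsChia1a*, *OsChia1d*, *OsChia2a* and *OsChia2b*, and no further RBBI gene. The 9 genes had 12 probe sets, out of 17905 genes with a probe set of their own and 57194 probe sets tested. *OsChia1b* also carried the family name but had no probe set of its own and was not analysed here.

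The samples were whole seeds of the indica variety PB1 at the S3 stage, 5 to 10 days after pollination, on 6 Affymetrix rice genome arrays. The MADS29_KD group (3 arrays) came from transgenic plants with an RNA interference construct against *OsMADS29*, a seed MADS-box transcription factor gene, and the WT group (3 arrays) from wild-type plants of the same variety. The sources used here give neither the promoter of the construct nor whether the MADS29_KD arrays stand for separate plants or separate transformed lines. The p-values therefore measure the spread between these samples only, which may be technical.

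Chitinases are enzymes that cut chitin, the polymer of fungal cell walls and insect cuticles, and plants make several classes of them. Class I enzymes carry a chitin-binding domain of the hevein type, class II enzymes lack it, and class IV enzymes are shorter relatives of class I. Cereal agglutinins are lectins built from the same hevein-type domains, and in grains they are known from the embryo. Bowman-Birk inhibitors block trypsin-like proteases, and germin-like proteins are cell wall glycoproteins, some of which produce hydrogen peroxide. All of these are known both as seed proteins and as defence proteins.

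*OsMADS29* itself (gene ID 4328443) had log2 signals of 5.17, 5.11 and 4.90 on the MADS29_KD arrays and 7.16, 6.60 and 7.30 on the WT arrays. Each MADS29_KD array lay below each WT array, as the labels say, with a log2 difference of −1.96 ± 0.21 (SE, limma adjusted p = 0.00725). Across probe sets, which are not independent replicates, Pearson's r was 0.9898 to 0.998 between arrays within a group, while pairs of a MADS29_KD and a WT array gave 0.955 to 0.963. MADS29_KD replicate 1 (2.75) and WT replicate 2 (2.33) had a 5′ actin signal no higher than background, whereas the remaining 4 arrays read 5.86 to 6.42. Background was the 95th percentile of 74 probe sets for sequences foreign to rice, and it lay between 2.78 and 2.92 on the log2 scale. A gene is called at background in a group if all its arrays, or some of them and the group mean, were at or under that level, and its fold is then a lower bound. With arrays, precision is limited by their number.

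Of the 9 genes, each read by its brightest probe set, *RBBI3.3*, *Agglutinin* and *OsGER1* were higher in MADS29_KD seeds, and *OsChia4a*, *OsChia2a* and *OsChia1c* were lower. The log2 difference of *OsChia1c* was only −0.12, with MADS29_KD at background. *OsChia1a*, *OsChia1d* and *OsChia2b* did not pass the test (limma, adjusted p under 0.05 over 57194 probe sets). Over all 17905 genes 25.7% were called, 10.8% higher and 14.8% lower, and over all 57194 probe sets 11.3% were, with 5.07% higher and 6.28% lower. All 5 genes taken by name are among the 6 called, which follows from how they were chosen, so nothing is read from that count and no p is given for them. Of the 4 genes added by family name, 1 was lower and 3 were not called, with a median log2 difference of −0.07 against 0.01 over all genes. The groups were fully separate for 5 of the 5 genes taken by name, which their choice fixed, and for 1 of the 4 added by family name, against 59.1% of all genes and 58.6% of all probe sets. In whole seeds, fewer cells of a type and less RNA per cell cannot be told apart.

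**Figure D1:**
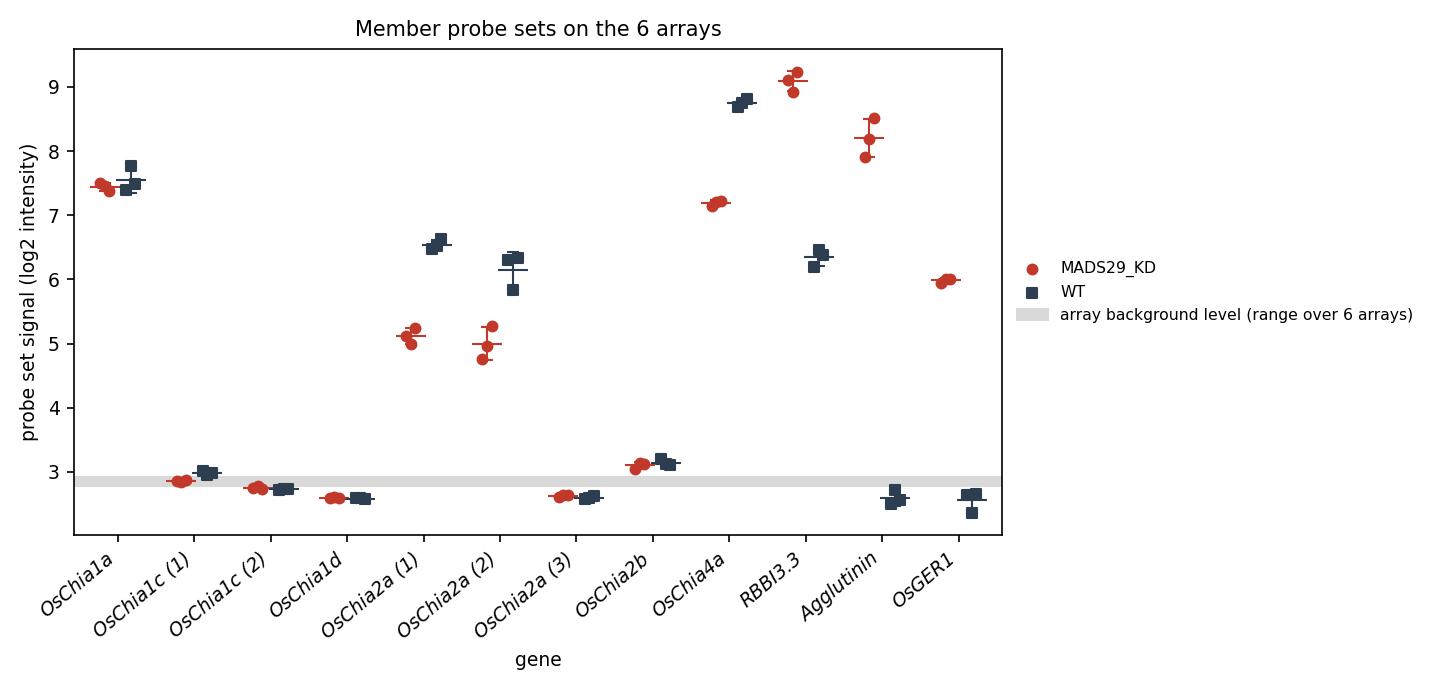
Log2 signal of the 12 probe sets of the 9 genes (x axis) on 3 MADS29_KD arrays (circles) and 3 WT arrays (squares), with bars for the group mean and SD and a grey band for the background level (2.78 to 2.92). Numbers in brackets count the probe sets of 1 gene from bright to dim. *Agglutinin* and *OsGER1* are above the band only in MADS29_KD, and *OsChia4a* and 2 probe sets of *OsChia2a* are lower in MADS29_KD.

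Among the chitinases, the class IV gene *OsChia4a* (gene ID 4336265) had log2 signals of 7.15, 7.20 and 7.23 in MADS29_KD and 8.69, 8.75 and 8.80 in WT. The groups did not overlap, and the lowest WT array stood 1.46 above the highest MADS29_KD array. The group means were 7.19 ± 0.04 in MADS29_KD and 8.75 ± 0.06 in WT (SD, n = 3 each), a log2 difference of −1.56 ± 0.04 (SE), or 2.94-fold lower in MADS29_KD. Of the 16640 probe sets above background on all 6 arrays, 362 had a deeper fall. *OsChia4a* was chosen on this contrast, so its rank is only a description.

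*OsChia2a* (gene ID 4349267), a class II gene that was added by family name only, was measured by 3 probe sets. The brightest read 5.11, 4.99 and 5.24 in MADS29_KD and 6.48, 6.52 and 6.63 in WT, with no overlap. The log2 difference was −1.42 ± 0.08 (SE, limma adjusted p = 0.00113), or 2.68-fold lower in MADS29_KD. The next, of the s_at kind, which can also catch related transcripts, read 4.76, 4.96 and 5.28 in MADS29_KD and 6.30, 5.83 and 6.33 in WT. That is a wider spread, with a log2 difference of −1.15 ± 0.20 (SE, limma adjusted p = 0.0316), and without MADS29_KD replicate 1 or 2 or WT replicate 1 or 3 it was not called (adjusted p = 0.0792 to 0.119). Nor was this s_at probe set called after quantile normalization (limma adjusted p = 0.0549). The last was at background on all 6 arrays (2.61 to 2.64 in MADS29_KD and 2.57 to 2.63 in WT), so it gives no measure of the gene.

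*OsChia1c* (gene ID 4342114), a class I gene, was near or at background with both of its probe sets, which are of the x_at kind and can share signal with relatives. The brighter read 2.85, 2.85 and 2.88 in MADS29_KD and 3.02, 2.95 and 2.98 in WT. The groups did not overlap, but the gap between them was 0.07, MADS29_KD was at background, and the fall is at least 1.05-fold. Its log2 difference was −0.12 ± 0.02 (SE), and its other probe set differed by 0.03 ± 0.01 (SE) with all 6 arrays at or under background. Its signal was thus barely above background in WT, and the size of any change could not be measured.

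The class I gene *OsChia1a* (gene ID 4342115) was well above background in both groups. It read 7.51, 7.45 and 7.38 in MADS29_KD and 7.39, 7.77 and 7.48 in WT, and the groups overlapped. The log2 difference was −0.10 ± 0.11 (SE, limma adjusted p = 0.494), with a 95% interval of −0.39 to 0.19, so a change as large as that of *OsChia4a* lies outside the interval. *OsChia2b* (gene ID 4336263), of class II, read 3.04, 3.14 and 3.12 in MADS29_KD and 3.20, 3.12 and 3.11 in WT, which overlap just above background (−0.04 ± 0.04, adjusted p = 0.444). *OsChia1d* (gene ID 4338720), of class I, was at background on all 6 arrays, at 2.59 to 2.61 in MADS29_KD and 2.58 to 2.59 in WT (adjusted p = 0.337).

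Some of these chitinase genes are close neighbours in the RefSeq annotation. *OsChia1c* and *OsChia1a* follow each other with 0 annotated genes between, one near background and the other clearly detected. *OsChia2b* and *OsChia4a* are separated by 2 annotated genes, with log2 differences of −0.04 and −1.56. *Cht9*, another chitinase gene, lies directly before *OsChia1d*, and both were at background in both groups, with 1 MADS29_KD array of *Cht9* above it.

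The Bowman-Birk inhibitor gene *RBBI3.3* (gene ID 9271230) read 9.11, 8.92 and 9.24 in MADS29_KD and 6.20, 6.46 and 6.38 in WT. Each MADS29_KD array was at least 2.46 above each WT array. The means were 9.09 ± 0.16 in MADS29_KD and 6.35 ± 0.13 in WT (SD, n = 3 each), a log2 difference of 2.75 ± 0.11 (SE), or 6.71-fold higher in MADS29_KD. Of the 16640 probe sets above background on all 6 arrays, 90 had a larger rise. *RBBI3.3* was chosen on this contrast, so its rank is only a description. Its single probe set is of the s_at kind, so transcripts of related inhibitor genes can add to the signal, and with x_at and s_at probe sets left out the gene has no value.

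*Agglutinin* (gene ID 4335068), for the chitin-binding seed lectin, read 7.91, 8.19 and 8.51 in MADS29_KD and 2.49, 2.73 and 2.56 in WT. All 3 WT arrays were at background and all 3 MADS29_KD arrays far above it, so its signal rose above background in MADS29_KD seeds alone. Against the background level it was at least 42.7-fold higher in MADS29_KD. The fitted log2 difference, 5.61 ± 0.17 (SE), rests on WT values with no order and is no measure of the true rise. Among the MADS29_KD arrays *Agglutinin* varied more (SD 0.30) than *OsChia4a* (SD 0.04) or *OsGER1* (SD 0.04).

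*OsGER1* (gene ID 4344840), for a germin-like protein, read 5.94, 6.002 and 6.01 in MADS29_KD and 2.65, 2.37 and 2.66 in WT. It too was at background on all 3 WT arrays and above it on all 3 MADS29_KD arrays, and was at least 9.16-fold higher. The fitted log2 difference was 3.43 ± 0.09 (SE).

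Between MADS29_KD replicate 1 and WT replicate 2, the arrays with low 5′ actin signal, the log2 difference was 2.65 for *RBBI3.3*, −1.60 for *OsChia4a* and −1.40 for the brightest probe set of *OsChia2a*. On the other 4 arrays it was 2.79 for *RBBI3.3*, −1.53 for *OsChia4a* and −1.43 for *OsChia2a*. The sign in each class follows from the groups not overlapping, so only the sizes are given. *Agglutinin* and *OsGER1* have no such sizes because WT was at background.

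*OsGER1* lies in a run of germin-like genes, and its neighbours did not all move with it. *OsGER2* (gene ID 4344839) comes directly before it with 0 annotated genes between, and read 4.99, 4.63 and 5.08 in MADS29_KD and 2.77, 2.39 and 2.72 in WT. As with *OsGER1*, all WT arrays were at background and all MADS29_KD arrays above it, and the gene was at least 4.32-fold higher (limma adjusted p = 0.00249). *OsGER3* (gene ID 4344838), directly before *OsGER2*, had a high signal in both groups, at 13.39, 13.38 and 13.35 in MADS29_KD and 13.31, 13.17 and 13.34 in WT. Its log2 difference of 0.10 ± 0.05 (SE) was not called (limma adjusted p = 0.225, 95% interval −0.03 to 0.23). *OsGER6*, 2 annotated genes after *OsGER1*, and *RGLP1*, farther along, were at background in both groups, with 1 MADS29_KD array of *RGLP1* above it. Transcripts of such closely related genes can share probe set signal, and that share was not tested.

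**Figure D2:**
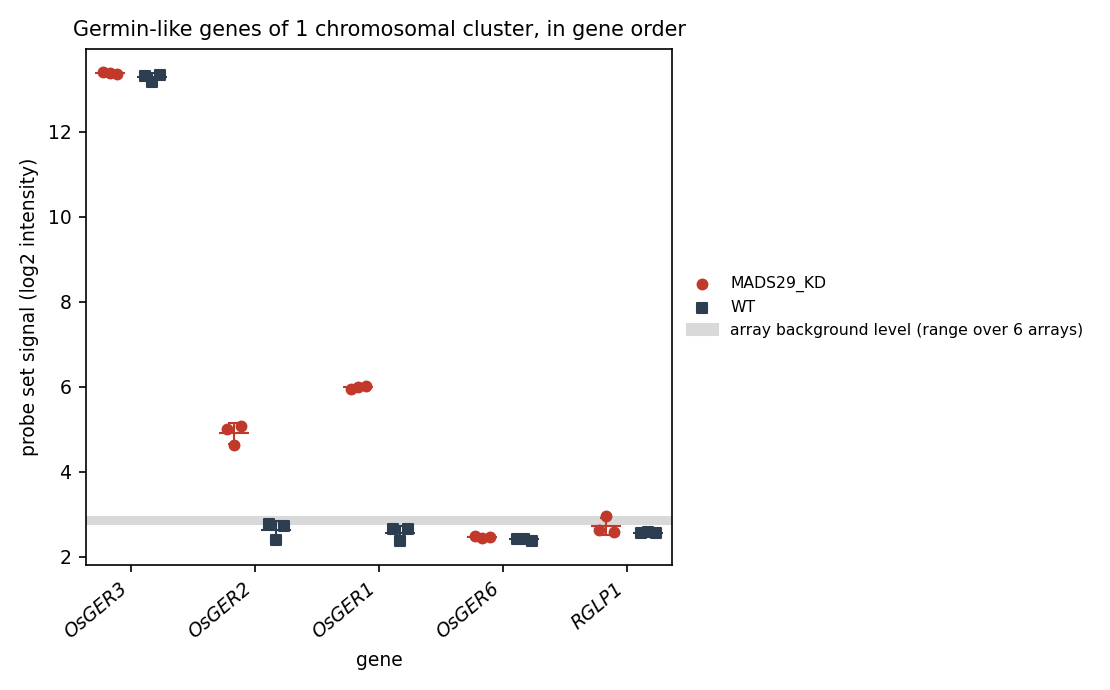
Log2 signal (y axis) of the 5 germin-like genes of the run that had a probe set, in their order along the chromosome (x axis, not to scale) on 3 MADS29_KD arrays (circles) and 3 WT arrays (squares), with group mean and SD and the background level as a grey band. *OsGER2* and *OsGER1* are above the band only in MADS29_KD, *OsGER3* is far above it in both groups, and *OsGER6* and *RGLP1* lie at or under it apart from 1 MADS29_KD array of *RGLP1*.

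Other genes of these protein classes were taken by name patterns, with earlier results of these data known. The counts called below stand beside 10.8% of all genes called higher and 14.8% lower, and nothing is read from them. Of 8 germin-like genes with a probe set besides *OsGER1*, *OsGER2* was the 1 called higher, 0 were called lower, and 6 were at background in both groups (median log2 difference 0.08). Of 5 further chitinase-type genes, none was called by limma and 4 were at background in both groups. The exception was *Cht11*, at 4.39, 3.68 and 3.84 in MADS29_KD and 3.04, 3.53 and 3.13 in WT, whose difference of 0.73 ± 0.24 (SE) did not pass the test (adjusted p = 0.136). *RIXI*, which has the fold of a chitinase but is known as a xylanase inhibitor, was among those at background.

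All 5 other inhibitor genes were called, 4 of them higher and 1 lower, with a median log2 difference of 1.35, where 25.7% of all genes were called, 10.8% higher and 14.8% lower. That share includes genes at background, whereas these 5 were above it in both groups by their brightest probe set. When only the 19928 probe sets above background on at least 3 arrays were fitted, 8651 were called. Oryzacystatins block cysteine proteases of the papain kind. *OC-I* read 10.39, 10.15 and 10.19 in MADS29_KD and 8.23, 8.52 and 8.48 in WT, a rise of 1.83 ± 0.11 (SE, limma adjusted p = 0.0013), though its second probe set was at background on all arrays. *OC-III* read 10.39, 10.28 and 10.26 in MADS29_KD and 8.86, 9.12 and 8.91 in WT (1.35 ± 0.08, adjusted p = 0.00139). *OC-II* rose by 1.30 ± 0.10 (adjusted p = 0.00239). In none of these 3 did the groups overlap, which also held for 59.1% of all genes.

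*OC-IV*, of the same inhibitor class, went the other way. It read 6.38, 6.26 and 6.27 in MADS29_KD and 8.30, 8.27 and 8.41 in WT, a log2 difference of −2.03 ± 0.06 (SE, limma adjusted p = 0.00022), 4.07-fold lower in MADS29_KD. *RASI*, for an inhibitor of alpha-amylase and of the bacterial protease subtilisin, was named after its values were seen and completes the class. It read 9.45, 10.55 and 10.56 in MADS29_KD and 7.53, 6.84 and 7.59 in WT, a rise of 2.87 ± 0.40 (SE, limma adjusted p = 0.0159). The lowest array of each group was the one with low 5′ actin signal, and the rise was 2.62 within that pair and 3.00 on the other 4 arrays. Without MADS29_KD replicate 2 or 3 or WT replicate 1 or 3 the adjusted p of *RASI* was 0.0591 to 0.0639.

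Of the other lectin genes, *salT*, for a mannose-binding lectin first known from salt-stressed rice, read 7.46, 7.23 and 7.17 in MADS29_KD and 4.29, 4.83 and 4.46 in WT. The groups did not overlap, and the rise was 2.76 ± 0.17 (SE, limma adjusted p = 0.00146). Its second probe set, of the x_at kind, rose by 3.01 ± 0.21. *Osr40c1*, for a protein with ricin-type lectin domains, differed by −0.22 ± 0.08 (SE) and was not called (adjusted p = 0.148). *PBZ1*, the probenazole-induced gene for a PR10 protein and the one gene found for a pathogenesis-related protein, read 10.01, 10.09 and 10.11 in MADS29_KD and 10.44, 10.48 and 10.43 in WT. It fell by 0.38 (SE 0.03, limma adjusted p = 0.00337), a small change of 1.30-fold with no overlap.

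**Figure D3:**
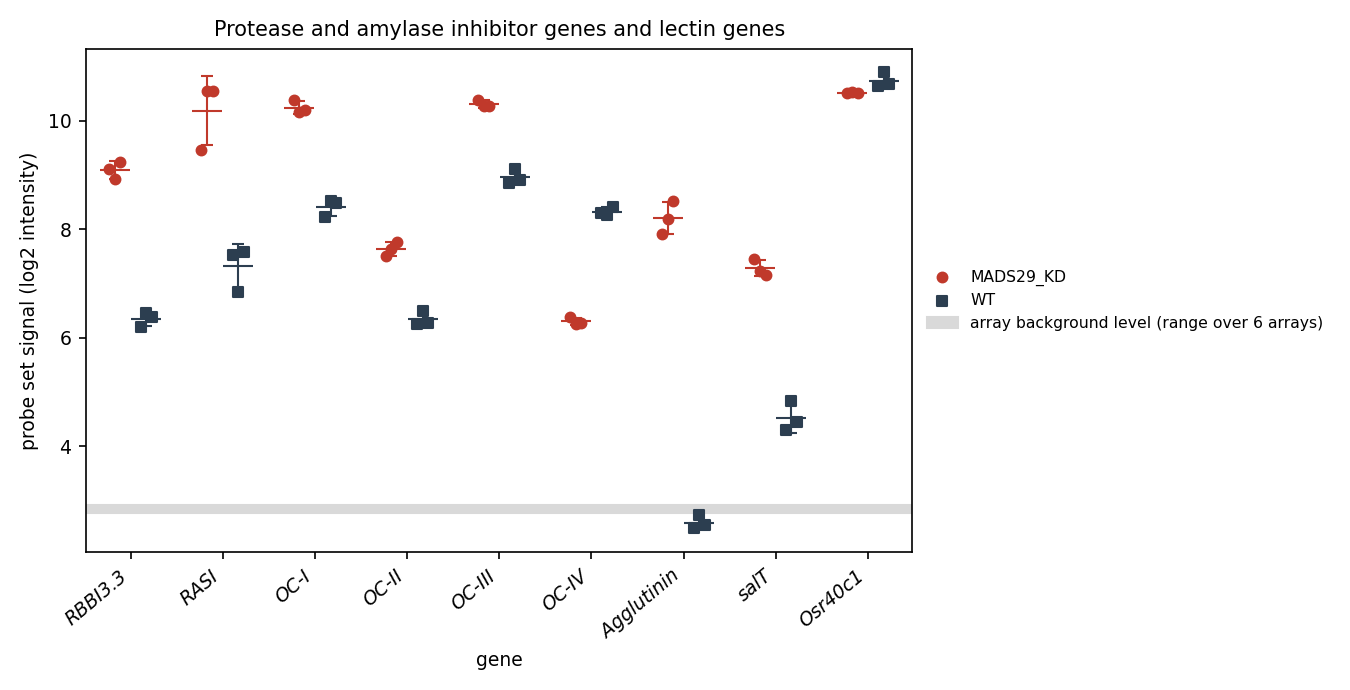
Log2 signal (y axis) of 6 inhibitor genes and 3 lectin genes (x axis) on 3 MADS29_KD arrays (circles) and 3 WT arrays (squares), with group mean and SD and the background level as a grey band. *RBBI3.3*, *RASI*, *OC-I*, *OC-II* and *OC-III* are higher in MADS29_KD and *OC-IV* is lower, while *Agglutinin* lies under the band in WT and *salT* is above it in both groups.

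The name patterns also took genes of other protein classes, which their further names show. The pattern for beta-1,3-glucanases found 4 glutamine synthetase genes, of which 2 were higher (*OsGLN1;2* at 0.98 ± 0.10 and *OsGLN2* at 0.40 ± 0.04). That for thaumatin-like proteins found 12 tubby-like genes with a probe set, of which 4 were higher, among them *OsTLP3* (gene ID 4325075), *OsTLP12* (4344429) and *OsTLP10* (4339307), and 1 lower, a second gene listed as *OsTLP3* (4337480). The pattern for pathogenesis-related proteins also took the *NPR1* receptor gene, which was at background on all arrays. No defensin or thionin gene was found by name. Of the 38 genes with a probe set in the list as written, 12 were called higher and 3 lower (median 0.16), and of the 21 left without the other protein classes, 6 were higher and 2 lower (median 0.10). Of all genes, 10.8% were called higher and 14.8% lower, with a median of 0.01.

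**Figure D4:**
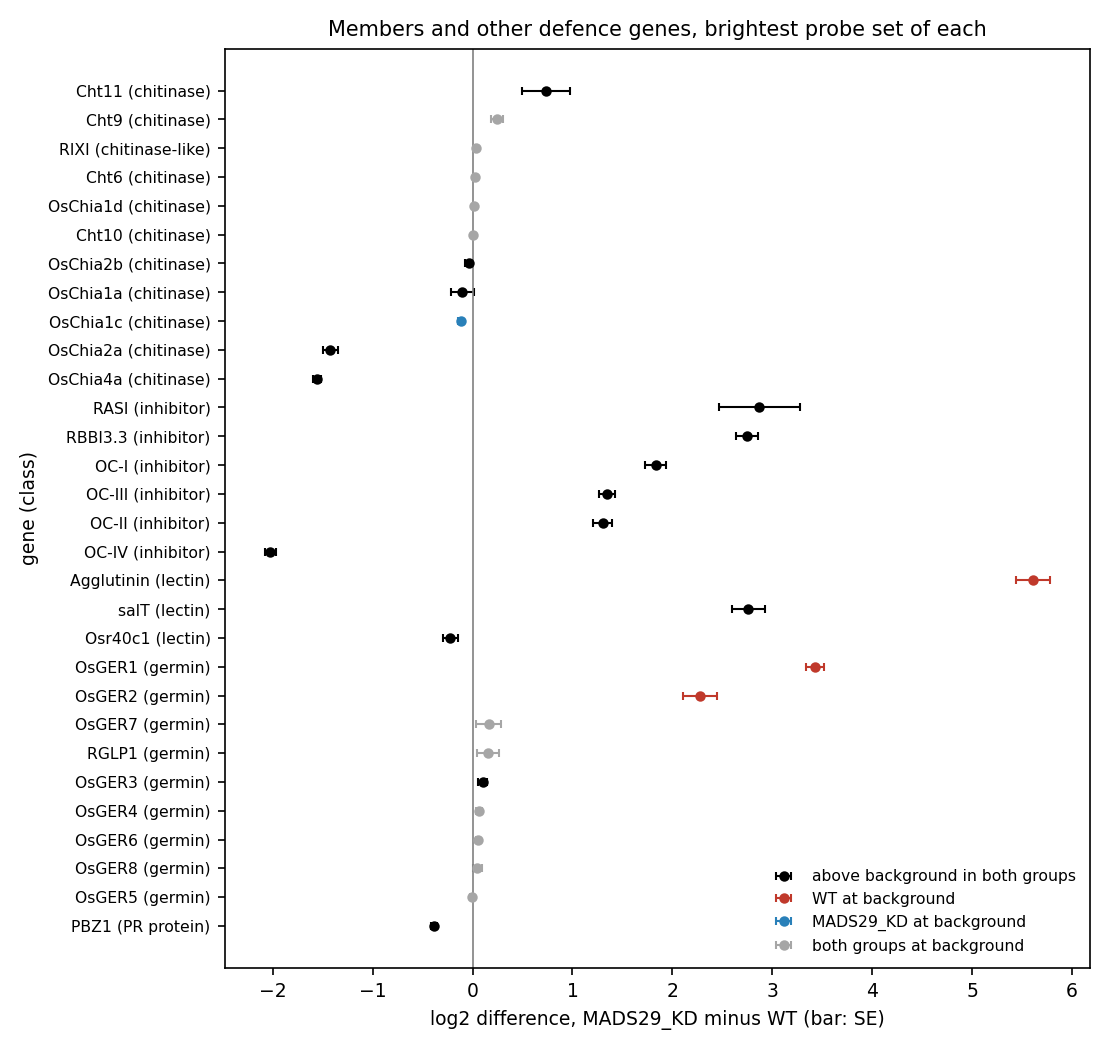
Log2 difference, MADS29_KD minus WT, with its SE (x axis) for the 9 genes and the 21 other genes of these classes (y axis, brightest probe set of each), coloured by whether a group was at background. *OsChia4a* and *OsChia2a* lie below −1, the inhibitors apart from *OC-IV* lie above 1, and *Agglutinin* stands at 5.61 with WT at background.

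Markers of seed tissues moved between the groups too. Over all genes 10.8% were called higher and 14.8% lower. Of the 19928 probe sets above background on at least 3 arrays, 8651 were called when fitted alone. Of 6 genes on a list for embryo and maturation, 5 were called higher and 0 lower, the exception being the shoot meristem gene *OSH1* (−0.11 ± 0.06, SE, limma adjusted p = 0.262). The summed linear signal of that list was 5912 to 6205 on MADS29_KD arrays and 382 to 449 on WT arrays. Of 5 endosperm genes measured, of 8 listed, 4 were higher, with sums of 46574 to 47947 in MADS29_KD and 25717 to 28046 in WT. Of 3 genes measured, of 4 listed, for aleurone and germination 2 were higher, with sums of 1303 to 1388 in MADS29_KD and 591 to 603 in WT, and *RAmy3D* was at background. The 3 genes measured of 5 for green pericarp (1 higher, 2 lower) summed to 4257 to 4632 in MADS29_KD and 8039 to 8504 in WT. Most of these sums came from *CAB2R* (−1.20 ± 0.07, SE). *LIR1* was also lower (−2.24 ± 0.24), but *OsrcaA1* was higher (1.80 ± 0.10), so the list was mixed. Of 3 genes listed for the nucellus 2 were measured, and 1 of these is *OsMADS29*, the gene the construct was made to silence. The other, *OsAsp1*, was lower and at background in MADS29_KD (at least 1.60-fold, limma adjusted p = 0.0196). Of 3 anther genes measured, of 4 listed, limma called none, *OsC6* and *RTS* were at background, and the sums were 61.7 to 105 in MADS29_KD and 58.7 to 84.8 in WT. Most of the anther sums came from *OsMADS3*. The part of these shifts in the values of the lectin, inhibitor, germin and chitinase genes was not tested.

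The profiles of the 5 genes taken by name were set against 2277 probe sets of other genes with a gene name, above background on at least 3 arrays, by Pearson's r over the 6 arrays. The arrays form 2 groups, so r mostly follows the sign of the group difference and is given as a description. Closest to *RBBI3.3* were *CML8*, *OsTIP3;2* and *Os5bglu22* (r = 0.999, 0.999 and 0.999). Closest to *Agglutinin* were *Os5bglu22*, *OsSAP5* and *OsPP2C66* (r = 0.999, 0.999 and 0.999), and closest to *OsGER1* were the dehydrin gene *rab25*, *OsPP2C27* and *Q-enzyme* (r = 0.999, 0.999 and 0.999). For *OsChia4a* they were the cyclin gene *CYCB2*, *PPO* and *LTP110-A* (r = 0.999, 0.999 and 0.999). Between 70 and 92 probe sets passed r = 0.99 with each of these 4 genes, so the 3 named are not set apart. The filter of 3 arrays can be passed through 1 group alone. WT means of *OsPP2C66* (2.51), *OsSAP5* (2.81) and *rab25* (2.76) and the MADS29_KD mean of *CYCB2* (2.79) lay at or near background. *Agglutinin* and *OsGER1* were at background in WT too, so their r shows little beyond the group difference. For *OsChia1c*, whose values lie near background, 1 probe set passed it (*OsCIPK14*, r = 0.995), followed by *OsQSOX1* and *OsHox5* (r = 0.9896 and 0.985).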

How the data were processed

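The table held the linear intensity of 57381 probe sets on 6 arrays, as the authors deposited it. The deposited intensities ran from 3.98 to 16101 with column medians of 6.05 to 6.18. Per the labels, RNA was extracted with Trizol, and 500 ng was labelled with biotin. How the authors corrected, summarized and normalized these intensities is not stated in the sources at hand. Here log2 was taken with no further normalization, and 187 control probe sets were left out. The array annotation gave 22436 probe sets 1 gene each and 95 probe sets several, and named no gene for 34663. Gene names and gene order came from the RefSeq table of assembly ASM3414082v1.

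MADS29_KD was compared with WT by lmFit and eBayes of limma 3.58.1 (R 4.3.3) with no block, adjusted by Benjamini-Hochberg over 57194 probe sets and called under 0.05. The procedure was tested on simulated data. A gene with several probe sets was counted by its brightest, taken as the mean of all 6 arrays. The members and gene lists were chosen with earlier results of these data known. Genes of the wider list are named by a rule of up to 3 per class and direction by smallest adjusted p. Alternatives were other normalizations, a filter on dim probe sets, blocks, weights, a fold threshold and leaving out each array. Promoters and sequences were not analysed here.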

Additional observations from a re-analysis of the deposited data

How the results depend on the processing

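Quantile normalization put the log2 difference of *OsChia4a* at −1.50, against −1.56 without it. The count of chitinase and Bowman-Birk genes called higher was 1 in every other setting run and 0 without x_at and s_at probe sets, which removes *RBBI3.3*. The count called lower was 3, and 2 to 3 with each array left out and in the remaining settings. These counts include *RBBI3.3*, *OsChia4a* and *OsChia1c*, which were chosen on this contrast, so nothing is read from how steady the counts were. With no block, 10.8% of all genes were called higher and 14.8% lower. For the wider list, the count called higher was 12, 4 with the replicate block, 6 with at least 2-fold, 6 without genes of another protein class (an alternative chosen after the data were seen) and 8 to 11 with each array left out. The count called lower was 3, 1 with at least 2-fold and 3 to 4 with each array left out. Over all probe sets 6490 were called, 2140 with the replicate block, 2596 with at least 2-fold and 3596 to 5475 with each array left out, the lowest without WT replicate 3 (3596), WT replicate 1 (3912) and MADS29_KD replicate 2 (4288). Whether replicate numbers pair these arrays could not be settled. Deviations of same-numbered arrays correlated at r = −0.54, −0.54 and 0.43, and only replicate 3 of each group correlated best with its own number. MADS29_KD replicate 1 and WT replicate 2, the arrays with low 5′ actin signal, correlated at r = 0.68. Deviations within groups of 3 arrays are tied to each other, so this check cannot exclude shared batches. Of the named probe sets called with no block, those not called by limma under the replicate block were *OC-I* (adjusted p = 0.0503), *OsTLP3* (gene ID 4325075, 0.0641), *OsGLN2* (0.0718), *OsTLP12* (0.0817), *OsGLN1;2* (0.0921), *OsTLP10* (0.09996), *RASI* (0.109) and the s_at probe set of *OsChia2a* (0.105). The cause of these changes was not tested. Some settings also had fewer arrays or probe sets. Signals near background limit *OsChia1c*, *OsChia1d* and *OsChia2b*.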
